A study of Mus musculus with 6 samples.

Results

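Potassium channel genes were taken as the genes whose symbol in the deposited tables starts with Kcn, without Kcnj8, which marks pericytes. There were 96 such genes among 19943 genes. They fell into 20 subfamilies by symbol and 5 further genes. Gene expression was measured by RNA sequencing in the medial prefrontal cortex, a frontal cortical region, of C57BL/6 mice. The 3 isolated libraries came from mice put under social isolation for 3 weeks from weaning, and the 3 control libraries from mice labelled only as controls, whose housing the labels do not describe. The age is 6 weeks in the sample labels and 7 weeks in the text on the series' design. The labels name neither the sex of the mice nor whether the libraries of a group are separate animals, so the p-values measure only the spread between these libraries, which may be technical.

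Potassium channels let potassium leave the cell along its gradient, which sets the resting potential, ends action potentials and spaces their firing. Voltage-gated channels open on depolarization, inward rectifiers and tandem-pore leak channels hold the resting potential, and calcium-activated and sodium-activated channels open as these ions enter during activity. Pore-forming subunits assemble into channels together with auxiliary subunits that set their gating and their place in the membrane. In the cerebral cortex, members differ by cell type: fast voltage-gated channels serve fast-spiking interneurons and axons, and some inward rectifiers serve astrocytes.

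The shared mark of the pore-forming members is the selectivity filter, a run of 5 codons that lines the narrowest part of the pore. It was searched for in the coding sequence of 1 GENCODE M21 transcript per gene (GRCm38) as the potassium channel signature: threonine or serine, any residue, glycine, then tyrosine, phenylalanine or leucine, then glycine. All 75 pore-forming members matched this pattern, and 0 of the 16 auxiliary members of the Kcnab, Kcnip, Kcne and Kcnmb subfamilies did. The pattern was present in 5.35% of all 21877 protein-coding genes searched. Each of the 13 Kcnk members, the tandem-pore channels, matched the pattern 2 times. Kcna6 and Kcnh2 also matched it 2 times, and a match to so loose a pattern need not be a filter. The stretches of 45 bases below, read 5′ to 3′ on the coding strand, show the filter of abundant members of the main subfamilies and of Kcnh1 and Kcnk5, which return in the comparison; capitals mark the 15 bases of the signature. Where a stretch is listed with 2 exons, the coordinates span the intron between them and the letters are the spliced sequence.
Kcna1, chr6:126642213-126642257, minus strand, exon 2: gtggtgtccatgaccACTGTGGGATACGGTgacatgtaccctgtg
Kcna2, chr3:107105209-107105253, plus strand, exon 3: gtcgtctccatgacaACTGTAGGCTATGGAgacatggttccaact
Kcnc1, chr7:46427958-46428002, plus strand, exon 2: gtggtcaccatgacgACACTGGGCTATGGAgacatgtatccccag
Kcnh1, chr1:192337739-192337783, plus strand, exon 7: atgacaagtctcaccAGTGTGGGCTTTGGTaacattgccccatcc
Kcnj4, chr15:79485352-79485396, minus strand, exon 2: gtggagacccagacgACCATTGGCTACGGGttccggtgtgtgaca
Kcnma1, chr14:23528398-23528442, minus strand, exon 8: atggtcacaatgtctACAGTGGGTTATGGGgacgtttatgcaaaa
Kcnt1, chr2:25894352-25894396, plus strand, exon 11: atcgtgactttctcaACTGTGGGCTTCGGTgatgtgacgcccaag
Kcnk1 first pore, chr8:125995793-126025034, plus strand, exons 1 and 2: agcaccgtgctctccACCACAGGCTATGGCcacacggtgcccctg
Kcnk1 second pore, chr8:126025314-126025358, plus strand, exon 2: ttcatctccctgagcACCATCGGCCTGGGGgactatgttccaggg
Kcnk5 first pore, chr14:20145100-20146522, minus strand, exons 2 and 3: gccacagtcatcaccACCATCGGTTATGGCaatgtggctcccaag
Kcnk5 second pore, chr14:20142456-20144677, minus strand, exons 4 and 5: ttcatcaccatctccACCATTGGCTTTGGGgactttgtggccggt

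Members of a subfamily can be alike over this stretch. The stretch of Kcnc4, which is not printed, differed from that of Kcnc1 at 5 of 45 bases. The printed stretches of Kcna1 and Kcna2 differed at more bases. The reads were 50 bases long, and how many matched more than 1 member was not tested.

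The libraries were of even depth, at 18226448 to 18606573 expected counts, but they were not alike in the levels of cell type markers. Markers of striatal projection neurons, the main neurons of the neighbouring striatum, summed to 658 to 5008 CPM (counts scaled to library size) in control and 917 to 3667 CPM in isolated libraries. They were highest in control 2 and isolated 3, and all 15 were detected. The 10 markers of cortical projection neurons were all detected and summed to 6322 to 7789 CPM in controls and 6105 to 7402 CPM after isolation. Oligodendrocyte markers summed to 2783 to 4653 CPM in controls and 3623 to 6647 CPM after isolation. In such bulk tissue, fewer cells of a type and less RNA per cell cannot be told apart.

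Potassium channel genes spanned a wide range of levels. FPKM, which scales reads for gene length and library size, averaged at least 10 over the 6 libraries for 39 members, from 1 to under 10 for 29 and under 1 for 28. Of the 96 members, 82 passed the filter on low counts and were tested. The 14 that did not pass were Kcna7, Kcna10, Kcne1, Kcne2, Kcne3, Kcnj1, Kcnj15, Kcnk7, Kcnk15, Kcnk18, Kcnmb3, Kcnmb4os1, Kcnn4 and Kcnv2, none of which exceeded 0.73 FPKM in any library.

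**Figure D1:**
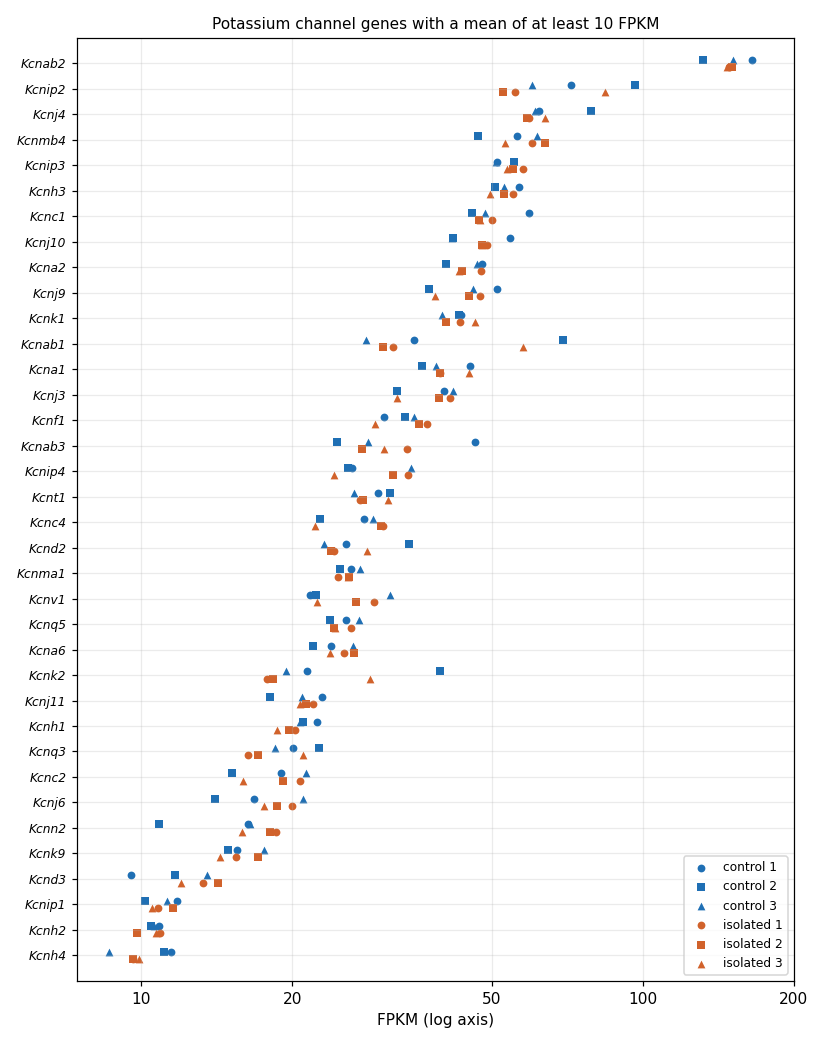
FPKM of 36 potassium channel genes with a mean of at least 10 FPKM, on a log axis, with 1 point per library (blue control, orange isolated; circle, square and triangle for replicates 1, 2 and 3). Kcnab2 stands highest at 132 to 165 FPKM, and the spread of Kcnab1 and Kcnk2 comes from control 2 and isolated 3.

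The Kcna subfamily encodes channels that open near threshold and sit on axons, and its level was carried by 3 genes. Kcna2 was at 47.9, 40.5 and 46.7 FPKM in controls 1, 2 and 3 and at 47.6, 43.7 and 43.0 FPKM in isolated 1, 2 and 3. Kcna1, whose loss in humans and mice gives ataxia and seizures, was at 45.3, 36.3 and 38.8 FPKM in control and 39.5, 39.5 and 44.95 FPKM in isolated libraries. Both genes overlapped between groups, with control 2 the lowest library for each. Kcna6 averaged 24.7 FPKM, whereas Kcna3, Kcna4 and Kcna5 averaged 4.16, 4.83 and 2.55 FPKM. Kcna1 made up 33.0% ± 2.35 of the summed FPKM of its subfamily in control and 33.7% ± 1.6 in isolated libraries, and Kcna2 37.1% ± 1.85 and 36.6% ± 2.61 (SD, n = 3). Some neighbouring genes differed in level. Kcna5, Kcna1 and Kcna6 lie in a row on chromosome 6 with gaps of 100.9 and 62.5 kb between them. Kcna1 and Kcna6 were both abundant, at 40.7 and 24.7 FPKM, whereas Kcna5 was at 2.55 FPKM. Likewise Kcna2 at 44.9 FPKM lies on chromosome 3 between Kcna3, 52.8 kb away, and Kcna10 at 0.04 FPKM, 68.1 kb away. Another gene model on the opposite strand covers 39.6% of the exon bases of Kcna6, and since no source used here says whether counting used strand, its reads could not be separated.

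The auxiliary beta subunits of these channels include the most abundant member of all. Kcnab2 was at 165, 132 and 151 FPKM in controls 1, 2 and 3 and at 149, 150 and 147 FPKM in isolated 1, 2 and 3. It made up 66.1% ± 7.28 of the Kcnab sum in control and 68.0% ± 5.01 in isolated libraries (SD, n = 3). Its isolated libraries lay inside the range of its controls. Kcnab1, which gives these channels fast inactivation, was at 34.97, 69.4 and 28.01 FPKM in control and 31.8, 30.3 and 57.6 FPKM in isolated libraries. The high values were those of control 2 and isolated 3. Kcnab3 was at 46.3 FPKM in control 1 and between 24.5 and 33.95 FPKM in the other 5 libraries.

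Kcnb2, a delayed rectifier, averaged 1.94 FPKM. Kcnc channels open and close fast enough for rapid firing. Kcnc1 was at 59.3, 45.6 and 48.5 FPKM in control and 50.0, 47.1 and 47.5 FPKM in isolated libraries. It was highest in control 1, and the groups overlapped. Kcnc4 averaged 27.0 FPKM and Kcnc2 18.6 FPKM.

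Kcnd genes encode the transient A-type current of dendrites, and Kcnip genes encode the calcium-binding partners that bring these channels to the membrane. Kcnd2 was at 25.6, 34.2 and 23.1 FPKM in control and 24.2, 23.9 and 28.2 FPKM in isolated libraries. Kcnd3 was at 9.56, 11.7 and 13.5 FPKM in control and 13.3, 14.2 and 12.03 FPKM in isolated libraries, so both overlapped. Kcnd2 made up 63.6% ± 5.97 of the Kcnd sum in control and 60.1% ± 3.54 in isolated ones (SD, n = 3). Kcnip2 was the leading partner, at 72.0, 96.6 and 60.2 FPKM in control and 55.7, 52.6 and 83.9 FPKM in isolated libraries. As for Kcnab1, control 2 and isolated 3 were its highest libraries. Kcnip3, also known as a calcium-dependent repressor, ranged from 51.0 to 57.8 FPKM, Kcnip4 averaged 29.5 FPKM and Kcnip1 11.02 FPKM.

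Kcnq channels carry the M-current, which restrains repetitive firing and is switched off by muscarinic receptors. Kcnq3 was at 20.1, 22.7 and 18.5 FPKM in control and 16.3, 17.1 and 21.04 FPKM in isolated libraries. Kcnq5 averaged 25.2 FPKM and Kcnq1, the cardiac member, 0.157 FPKM. The noncoding RNA Kcnq1ot1, which is transcribed from within Kcnq1, averaged 3.16 FPKM but 238 to 287 CPM, because its transcript is very long.

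The Kcnh subfamily holds the ether-a-go-go channels. Kcnh3 was at 56.7, 50.8 and 52.8 FPKM in control and 55.2, 52.8 and 49.5 FPKM in isolated libraries and made up 51.6% ± 0.879 and 53.0% ± 2.7 of the subfamily sum (SD, n = 3). Kcnh1 averaged 20.5 FPKM, Kcnh2 10.6 FPKM and Kcnh4 10.1 FPKM. Kcnh7 stood out by its spread within the isolated group, at 1.65, 2.18 and 6.10 FPKM in isolated 1, 2 and 3 against 3.93, 3.05 and 3.83 FPKM in controls. The silent subunits, which form channels only together with Kcnb subunits, were led by Kcnf1 at 33.5 FPKM and Kcnv1 at 25.6 FPKM on average. Kcns1 averaged 8.90 FPKM and Kcng1 8.32 FPKM.

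Inward rectifiers were led by Kcnj4, a strong rectifier of forebrain neurons, at 62.0, 78.8 and 61.0 FPKM in control and 59.4, 58.7 and 63.9 FPKM in isolated libraries. Control 2 and isolated 3 were again the highest of their groups. Among the G protein-gated channels that answer to inhibitory receptors, Kcnj9 averaged 44.2 FPKM and Kcnj3 37.9 FPKM, and Kcnj6 ranged from 14.03 to 21.02 FPKM. In CPM, these 3 genes were lowest in control 2 among controls and lowest in isolated 3 among isolated libraries. Another gene model on the opposite strand covers 31.1% of the exon bases of Kcnj3, so part of its reads is uncertain. Kcnj10, the potassium uptake channel of astrocytes, was at 54.3, 41.9 and 41.6 FPKM in control and 49.0, 47.8 and 47.7 FPKM in isolated libraries, while the 10 astrocyte markers summed to 4662 to 4896 CPM in controls and 4337 to 4514 CPM after isolation. Slc1a2 made up most of these sums, averaging 3060 CPM in controls and 2803 CPM after isolation. Of the 10 astrocyte markers, 2 were higher and 8 lower after isolation. Groups were separate for 2 of the 10, against 8.85% of all tested genes. The groups overlapped for Kcnj10, and the part of the astrocyte markers in its values was not tested. Kcnj11, the pore of the ATP-sensitive channel, ranged from 18.1 to 22.99 FPKM.

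Leak channels of the Kcnk subfamily were led by Kcnk1, at 43.5, 43.1 and 39.7 FPKM in control and 43.2, 40.5 and 46.4 FPKM in isolated libraries. Kcnk2, a channel opened by stretch and lipids, was at 21.4, 39.4 and 19.4 FPKM in control and 17.8, 18.4 and 28.6 FPKM in isolated libraries, highest in control 2 and isolated 3. Another gene model on the opposite strand covers 12.2% of the exon bases of Kcnk2. The acid-sensitive channel genes Kcnk9 and Kcnk3 averaged 15.8 and 8.71 FPKM.

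Among channels opened by calcium or sodium, the large-conductance channel gene Kcnma1 was at 26.2, 24.9 and 27.3 FPKM in control and 24.7, 25.9 and 25.8 FPKM in isolated libraries. Its neuronal beta subunit Kcnmb4 was at 56.2, 47.0 and 61.5 FPKM in control and 60.1, 64.0 and 53.2 FPKM in isolated libraries, and made up at least 97.1% of the Kcnmb sum in every library. Antisense RNAs overlap it, and Kcnmb4os2 covers 20.9% of its exon bases. Kcnn2, a small-conductance channel that shapes the afterhyperpolarization, was at 16.4, 10.8 and 16.5 FPKM in control and 18.5, 18.1 and 15.9 FPKM in isolated libraries. Control 2 was its lowest library, and the groups overlapped. The sodium-activated channel gene Kcnt1 averaged 28.9 FPKM and Kcnt2 8.56 FPKM. Kcnu1, a sperm channel, averaged 0.858 FPKM, and the Kcne subunits, most abundant in heart and epithelia, were led by Kcne1l at 1.23 FPKM.

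The comparison of isolated with control libraries asked whether isolation after weaning altered these levels. With edgeR's quasi-likelihood test, 0 of 82 tested members passed an adjusted p of 0.05, where 0.0% of all 15169 tested genes did, and the smallest adjusted p of a member was 0.999. At an unadjusted p under 0.05 there was 1 member, or 1.22%, against 3.53% of all tested genes. That member was higher in isolated libraries, where 1.52% of all tested genes were higher and 2.0% lower at that p. DESeq2 and limma-voom also called 0 members, with 0 and 1 at an unadjusted p under 0.05. The share of all tested genes at that p was not counted for these tools. The log2 difference was above 0 for 35 members and below 0 for 47, where 49.2% of all tested genes were above and 50.8% below, and its median was -0.02 over the members and -0.0018 over all tested genes. Among the 39 members with at least 10 FPKM the log2 differences ran from -0.32 to 0.26, and the 95% interval lay between -0.5 and 0.5 for 34 of them and for 50 of the 82. These intervals state what sizes of change these libraries leave possible, and they do not show that the levels are equal.

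**Figure D2:**
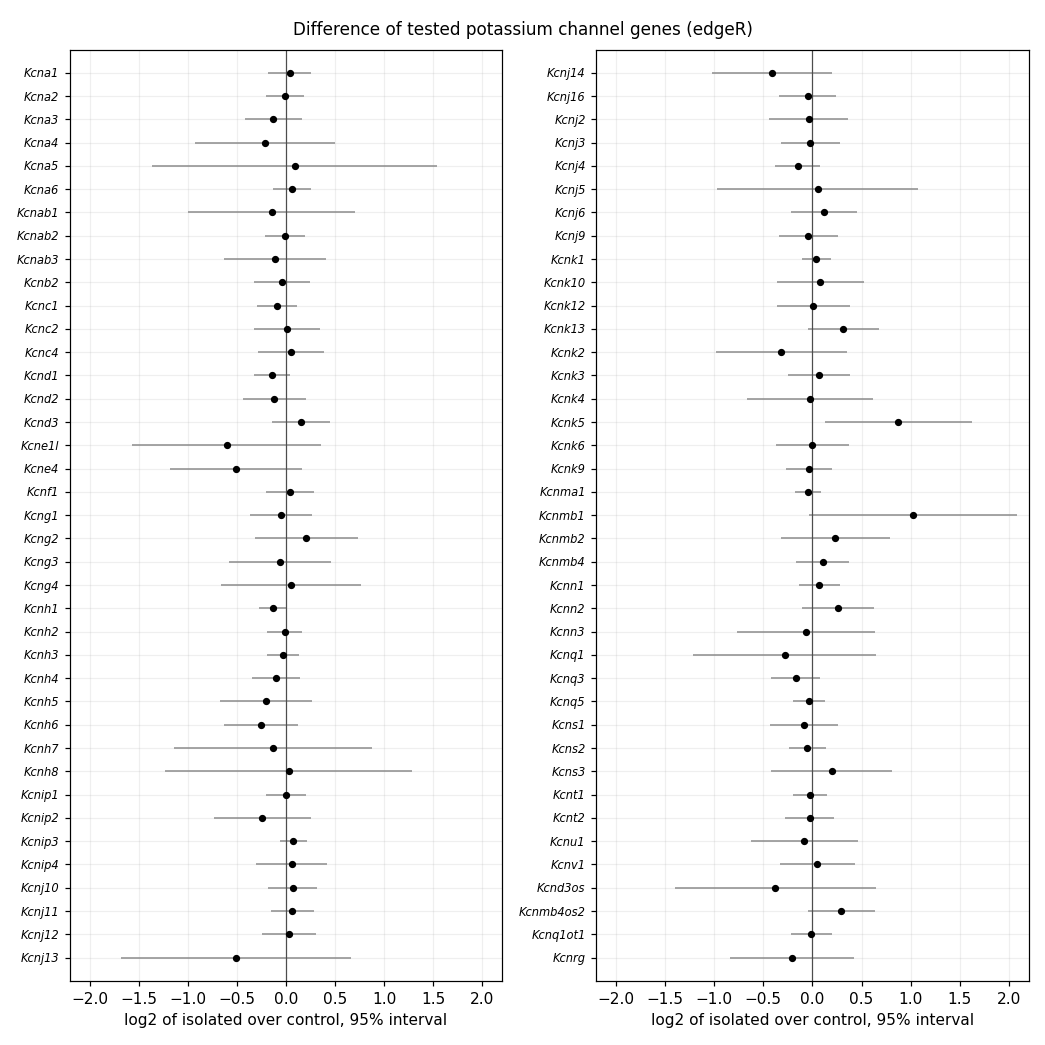
Log2 difference of isolated over control for 78 tested potassium channel genes (points) with 95% intervals (lines), by subfamily. The interval of Kcnk5 lies above 0 and the other 77 cross it; the intervals of Kcna5, Kcnh8 and Kcnj13 are widest.

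For 6 members, or 7.32%, the control and isolated ranges were separate, against 8.85% of all tested genes. Of these, 3 were higher in isolated libraries (4.12% of all tested genes were) and 3 were lower (4.73%). Kcnk5, an acid-sensitive leak channel on chromosome 14 from 20140057 to 20181782 (GRCm38), had the smallest unadjusted p. It was counted with 8, 9 and 5 reads in controls 1, 2 and 3 and 14, 15 and 12 reads in isolated 1, 2 and 3, or 0.399 ± 0.111 and 0.738 ± 0.0902 CPM (SD, n = 3). The log2 difference was 0.87 with a standard error of 0.32 (unadjusted p = 0.0272, adjusted p = 0.999, edgeR). When single libraries were left out, its unadjusted p ran from 0.0349 to 0.0939. It rests on at most 15 reads a library, and Kcnk5 at 0.168 FPKM was among the scarcest members tested.

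**Figure D3:**
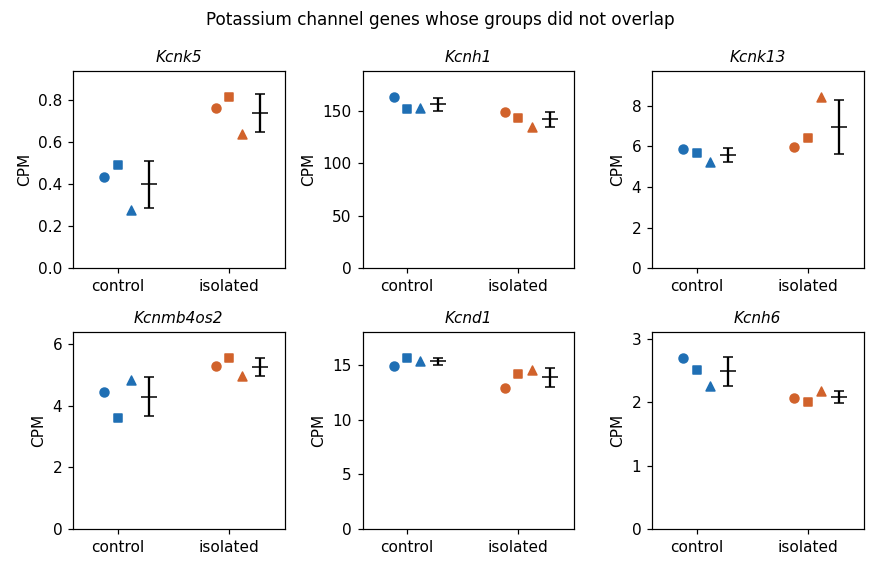
TMM-normalized CPM of the 6 tested potassium channel genes whose groups did not overlap, with 1 point per library (circle, square and triangle for replicates 1, 2 and 3) and the group mean ± SD beside the points; each axis starts at 0. Kcnk5 stays below 1 CPM in every library, and Kcnh1 is the one abundant gene, at 134.5 to 163.7 CPM.

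Kcnh1 was the one abundant gene of these 6. It encodes a slowly activating voltage-gated channel of neurons and lies on chromosome 1 from 192189144 to 192510159. It was at 163.7, 152.2 and 152.6 CPM in controls 1, 2 and 3 and at 148.5, 143.6 and 134.5 CPM in isolated 1, 2 and 3. All isolated libraries lay below all controls, with a log2 difference of -0.14, a standard error of 0.06 and an edgeR unadjusted p of 0.0546. Kcnh6, of the same subfamily, was also lower in all isolated libraries, at 2.49 ± 0.225 CPM in controls and 2.09 ± 0.0881 CPM after isolation (SD, n = 3). Its log2 difference was -0.25 (SE 0.16). In the Kcnh subfamily 7 of 8 members had a negative difference and 1 a positive one, with a median of -0.11, and 0 of the 8 had an unadjusted p under 0.05.

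The other 3 members with separate groups were Kcnd1, Kcnk13 and Kcnmb4os2. Kcnd1, the scarcest A-type pore gene, was at 15.3 ± 0.356 CPM in controls and at 13.8 ± 0.865 CPM after isolation (SD, n = 3). Its log2 difference was -0.14 (SE 0.08). Kcnk13, the leak channel of microglia, was at 5.89, 5.66 and 5.22 CPM in control and 5.97, 6.41 and 8.46 CPM after isolation (log2 difference 0.31, SE 0.16). Its groups were apart by 5.89 against 5.97 CPM. The log2 difference was 0.15 without isolated 3 and 0.41 without isolated 1. The 7 microglial markers summed to 305 to 335 CPM in controls and 292 to 309 CPM after isolation. Oligodendrocyte markers were highest in isolated 3, at 6647 CPM. The part of either list in the values of Kcnk13 was not tested. Kcnmb4os2 was at 4.43, 3.59 and 4.83 CPM in control and 5.26, 5.54 and 4.95 CPM after isolation (log2 difference 0.29, SE 0.15). Kcnmb4, on the other strand, covers 34.2% of its exon bases and was itself at 55.4 CPM on average in controls and 59.5 CPM after isolation, with overlapping groups.

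The other members among the 12 with the smallest unadjusted p had overlapping groups. Kcnmb1, the beta subunit of smooth muscle, was counted with 12, 17 and 13 reads in control and 27, 13 and 47 reads in isolated libraries (log2 difference 1.03, SE 0.45, edgeR unadjusted p = 0.0556). Isolated 3 and isolated 1 held the high values, and without isolated 3 the difference was 0.50. With another single library left out it reached 1.37. Kcnmb1 lies within the span of Kcnip1, which is on the other strand and averaged 11.02 FPKM. Exons of other genes covered 0.0% of the exon bases of Kcnmb1. The 7 vascular markers, Cldn5, Flt1, Pecam1, Vtn, Pdgfrb, Rgs5 and Higd1b, summed to 297 to 330 CPM in controls and 270 to 293 CPM after isolation. This list was not chosen to measure smooth muscle, and its part in the values of Kcnmb1 was not tested. Kcnn2 had a difference of 0.26 (SE 0.16), which was 0.09 without control 2, its low library, and reached 0.37 with another library left out. Kcne4 had a difference of -0.51 (SE 0.29), from 15, 28 and 22 reads in control and 16, 14 and 16 in isolated libraries. Without control 2 the difference of Kcne4 was -0.28, and without control 1 it was -0.72. Kcnj14 had a difference of -0.41 (SE 0.26), which was -0.22 without control 1 and -0.26 without isolated 1. It was -0.57 without control 3 and -0.58 without isolated 3. Kcnj4 had a difference of -0.15 (SE 0.10), which was -0.03 without control 2 and -0.21 without control 3. Kcnq3 had one of -0.17 (SE 0.11), which was -0.10 without control 2, -0.11 without isolated 1 and -0.28 without isolated 3. The unadjusted p of these 5 genes, Kcnn2 included, ran from 0.117 for Kcne4 to 0.159 for Kcnj4 (edgeR).

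By subfamily, members mostly split between the directions. All 3 Kcnab members had a negative difference, all 3 tested Kcnmb members a positive one, and both tested Kcne members a negative one, each with overlapping groups. The Kcna members split into 3 positive and 3 negative, Kcnb 1 and 1, Kcnc 2 and 2, Kcng 2 and 2, Kcnq 2 and 3, Kcnj 5 and 7, and Kcnk 6 and 4. Kcnip had 3 positive and 1 negative, Kcnd 1 and 2, Kcnn 2 and 1, Kcns 1 and 2, Kcnt 0 and 2, and the further genes 1 and 3. Of the subfamilies with 1 tested member, Kcnf and Kcnv were positive and Kcnma and Kcnu negative. Summed over its members, the Kcna subfamily stood at 121 ± 5.58 FPKM in control and 122 ± 3.87 FPKM in isolated libraries and Kcnj at 253 ± 11.6 and 248 ± 10.96 FPKM (SD, n = 3).

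The larger differences lay between libraries of the same group. In 28 of the 82 tested members (34.1%, against 18.0% of all tested genes) control 2 was the lowest control and isolated 3 the lowest isolated library. Among these were Kcna2, Kcna6, Kcnab2, Kcnc1, Kcnc2, Kcnc4, Kcnh1, Kcnh3, Kcnj3, Kcnj6, Kcnj9, Kcnj10 and Kcnmb4. In 15 members (18.3%, against 17.6% of all tested genes) both were the highest of their groups, and these were Kcna4, Kcna5, Kcnab1, Kcnd1, Kcnd2, Kcne1l, Kcnh8, Kcnip2, Kcnj4, Kcnj5, Kcnk2, Kcnmb1, Kcnn3, Kcnq3 and Kcnt1. The striatal markers were highest in the same libraries. The summed markers of cortical projection neurons were lowest there, with 6322 CPM for control 2 and 6105 CPM for isolated 3. Camk2a made up most of both sums (4011 and 3810 CPM). Bcl11b alone of that list ran the other way and peaked in these libraries, reaching 197.8 CPM (control 2) and 147.7 CPM (isolated 3). The part of either list in these ranks was not tested.

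**Figure D4:**
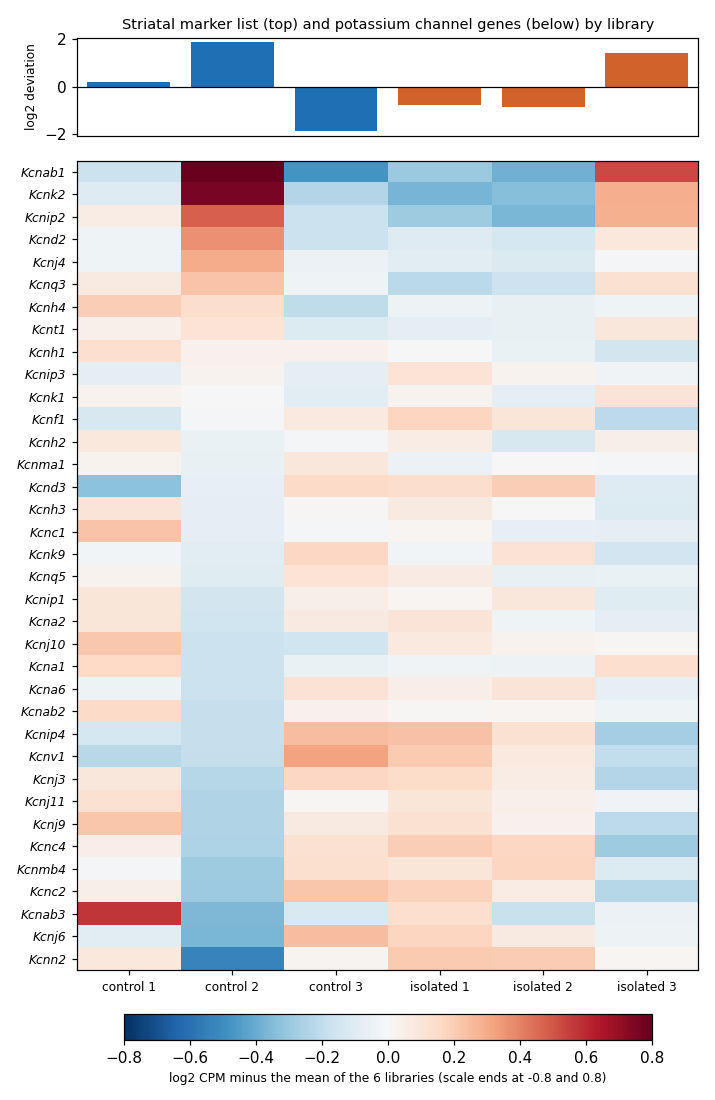
Bars on top show the mean log2 CPM of 15 striatal markers minus the mean of the 6 libraries, by library. Below, colours show the same deviation for 36 potassium channel genes with at least 10 FPKM, ordered by their value in control 2: Kcnab1, Kcnk2 and Kcnip2 are high in control 2 and isolated 3, and Kcnn2 is lowest in control 2.

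The widest spread among tested members was that of Kcna5, a channel better known from heart and smooth muscle. It was at 5.24, 13.7 and 3.46 CPM in controls 1, 2 and 3 and at 4.56, 4.29 and 14.96 CPM in isolated 1, 2 and 3, a 4.32-fold range. Its group difference of 0.09 had a standard error of 0.62 and turned to -0.76 without isolated 3 and -0.25 without control 3. Kcnab1 was lowest in control 3, at 92.5 CPM, and highest in control 2, at 225 CPM, with a group difference of -0.15 (SE 0.36) that was 0.33 without control 2. Kcnk2 had a difference of -0.32 (SE 0.29), which was 0.06 without control 2, and Kcnip2 one of -0.24 (SE 0.21), which was -0.04 without control 2 and -0.47 without isolated 3. Kcnh7 was lowest in isolated 1, at 6.35 CPM, and highest in isolated 3, at 22.99 CPM, with a difference of -0.13 (SE 0.43). Without control 2 and isolated 3 together its difference was -1.02, with an edgeR adjusted p of 0.41, and without isolated 1 it was 0.19. Kcnj13, a channel of choroid plexus, ranged from 0.373 CPM in isolated 3 to 1.57 CPM in control 1 on 7 to 29 reads. The summed choroid plexus and ependymal markers were highest in isolated 3, at 25.3 CPM, and stood at 10.2 CPM in control 1. Foxj1 gave 12.1 CPM of the sum in isolated 3. Kl alone of this list was highest elsewhere, at 4.03 CPM in control 2. The part of this list in the values of Kcnj13 was not tested. Gigyf2, on the other strand, covers 49.1% of the exon bases of Kcnj13, whose group difference was -0.51 (SE 0.50). Kcnh8 and Kcne1l ranged over 3.92-fold and 3.34-fold on 5 to 20 and 18 to 60 reads, with differences of 0.03 (SE 0.54) and -0.61 (SE 0.41). The difference of Kcne1l was -0.14 without control 2 and -1.03 without isolated 3.

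Control 2 and isolated 3, which had the highest striatal markers in these same data, were both left out in 1 fit. Each group then kept only 2 libraries. In this fit 7 members (8.54%) had an unadjusted p under 0.05, against 3.03% of all genes tested, and 0 passed an adjusted p of 0.05. With the striatal marker level as a covariate in edgeR, which leaves 3 residual degrees of freedom, 8 members (9.76%, against 5.97% of all tested genes) had an unadjusted p under 0.05 and 0 passed. Kcnip2, Kcnk2, Kcnq3 and Kcnk5 were in both counts. Kcnip2 then had log2 differences of -0.27 and -0.21 (unadjusted p = 0.0139 and 0.014, edgeR), close to the -0.24 of all 6 libraries. Kcnk2 had -0.19 and -0.25, and Kcnq3 -0.21 and -0.16. With the covariate the edgeR adjusted p of Kcnip2 was 0.777. Both fits share libraries, so their results are not independent.

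Isoform use was visible only through the mean transcript length that the tables give per library. It varied by over 2% between libraries for 9 of 82 tested members, against 1477 of 15169 tested genes. Among named members it was 7083, 7011 and 6934 bases for Kcnd3 in control and 6981, 6866 and 6671 bases in isolated libraries, and 2439, 2421 and 2311 bases for Kcnn2 in control and 2327, 2400 and 2424 bases in isolated libraries. The groups overlapped for both genes. They were separate for Kcnj11, at 2940, 2934 and 2965 bases in control and 2990, 3007 and 2973 bases in isolated libraries. This was not particular to Kcnj11: the groups were also separate in the same direction for Kcnj6, whose length varied by 1.04%. The share of all tested genes with separate lengths was not counted. Differences in length were not tested.

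Partners of these channels whose symbols do not start with Kcn were read in the same fit. Of 33 listed genes 32 were tested, with 12 higher and 20 lower in isolated libraries, a median of -0.02, 0 past an adjusted p of 0.05 and 1 at an unadjusted p under 0.05, against 3.53% of all tested genes. That gene was Rgs4, which shortens signalling of the G proteins that open Kcnj3 and Kcnj6 channels, at 609 ± 49.1 CPM in controls and 517 ± 39.8 CPM after isolation (SD, n = 3; log2 difference -0.24, SE 0.08, edgeR adjusted p = 0.999). Groups did not overlap for 4 of the 32 (Rgs4 and Adam22 lower, Vapa and Tmem175 higher), against 8.85% of all tested genes. The A-type channel partners Dpp6 and Dpp10 were at 285 ± 26.4 and 273 ± 3.79 CPM and at 203 ± 35.7 and 205 ± 27.2 CPM, and the juxtaparanodal adhesion gene Cntnap2, which gathers Kcna channels beside nodes, was at 120 ± 9.71 and 110 ± 4.999 CPM.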

How the data were processed

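Each of the 6 libraries has 1 table of expected counts, FPKM values and mean lengths. The deposited expected counts are estimates per gene that need not be whole and are not normalized, per the file headers. The deposited FPKM values are scaled for length and library size by the authors, per the file headers. Per the submitters' processing notes, the tools were HISAT, Bowtie2 and RSEM and the build was mm10. No source used here says if strand was used in counting. A table of the whole series was not used here, since no label gives its column codes. Genes absent from a table were set to 0. The 1 entry per table without a symbol held at most 0.00095% of counts and was left out.

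Expected counts were rounded and tested with edgeR 4.0.16 (R 4.3.3): filterByExpr (minimum count 10, minimum total 15), TMM factors, the quasi-likelihood F-test and Benjamini-Hochberg adjustment over 15169 genes. CPM use the same factors. Standard errors come from the fold change and F. DESeq2 1.42.0 and limma 3.58.1 were alternatives. The scripts were tested on simulated data. No library repeated another (chi-square between libraries per gene from 2.89 to 20.4).

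A few members are counted in the totals but not reported here by name or plotted. The members and lists were chosen with earlier results of these data known. In each subfamily the most abundant member and members of at least 10 FPKM were named, with the 12 smallest p, the 6 widest ranges between libraries and a fixed list. Members outside this rule were named for overlaps, neighbours or low levels, and Kcnh1 and Kcnk5 were added to the printed sequences after their values were seen. Coordinates and overlaps come from RefSeq and GENCODE M21 on GRCm38, the build also called mm10. Alternatives were another scaling, no filter, FPKM with pseudocounts of 1 and 0.1, a replicate block, a striatal covariate and leaving out libraries.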

Additional observations from a re-analysis of the deposited data

How the results depend on the processing

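No alternative called a potassium channel gene at an adjusted p of 0.05. Over all genes DESeq2 called 1, Fkbp5, and the other alternatives 0. The number of potassium channel genes at an unadjusted p under 0.05, 1 in the main analysis, was 0 with DESeq2, 2 without a filter, with library totals only, with limma on log2(FPKM + 0.1) and with limma on log2(FPKM + 1) without a filter, 7 without control 2 and isolated 3 together and 8 with the striatal covariate. It ranged from 1 to 5 when single libraries were left out: 4 of 83 without control 1 and without control 3 (4.83% and 5.61% of all genes tested), 2 of 82 without isolated 1 (3.07%), 5 of 83 without isolated 3 (3.45%), and 1 of 83 without control 2 (2.67%) and without isolated 2 (2.4%). The median log2 difference of the members ranged from -0.05 to 0.02 over those, against a spread of 0.06 between libraries of a group. The share of all genes at an unadjusted p under 0.05 was counted only for the main analysis, the left-out libraries and the striatal covariate. Under the other alternatives the counts of members have no such share to be read against.

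Deviations from the group means correlated at 0.0254, -0.269 and -0.492 for libraries with the same replicate number. For the other pairs the correlations ran from -0.319 to 0.438, the highest being control 2 with isolated 3. Deviations within so small a group are not independent, so these values cannot decide whether the shared numbers pair the libraries. With the replicate block, 0 potassium channel genes passed and 1 had an unadjusted p under 0.05, with the share of all genes not counted.

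Of 20 members with a printed difference, the sign turned with single libraries left out for Kcna5 (-0.76 to 0.87), Kcnab1 (-0.50 to 0.33), Kcnh7 (-0.91 to 0.19), Kcnh8 (-0.78 to 0.36), Kcnj13 (-0.93 to 0.0012) and Kcnk2 (-0.57 to 0.064). Kcnh8 was also at -0.16 with limma-voom, -0.052 with limma on log2(FPKM + 0.1) and -0.061 with the replicate block. The causes were not tested. Kcnmb4os2 kept its sign but was at 0.18 without control 2, and Kcnd1 at -0.09 without isolated 1. With other single libraries left out they reached 0.39 and -0.18.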
